A study of Mus musculus with 88 samples.

Results

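Genes that mark microglia or encode complement C1q were followed through the medial prefrontal cortex (mPFC), bed nucleus of the stria terminalis (BNST) and ventral hippocampus (vHPC) of mice exposed to chronic social defeat stress (CSDS). The 9 genes are *Cx3cr1*, *P2ry12*, *Tmem119*, *Csf1r*, *Trem2*, *Tyrobp*, *C1qa*, *C1qb* and *C1qc*, out of 48811 genes listed in any of the 3 region tables. They were found by matching the Ensembl gene identifiers of the tables to these symbols, and all 9 were present in each table and passed the filter on low counts.

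The mice were 8-week-old males of the inbred strains labelled C57BL/6Crl (B6) and DBA/2Crl (D2), which the study's methods name C57BL/6NCrl and DBA/2NCrl. Control mice were not defeated and lived beside another control mouse. Defeated mice met a new aggressive CD1 male each day and were classed as susceptible if they then avoided a social target, or as resilient if they resembled controls of their strain. Tissue was taken 6 to 8 days after CSDS. Of the 88 bulk RNA-seq libraries, 32 came from the mPFC (6 control, 6 resilient and 6 susceptible B6, 6 control and 8 susceptible D2), 28 from the BNST (5, 5 and 5 B6, then 5 control, 3 resilient and 5 susceptible D2) and 28 from the vHPC (6, 8 and 3 B6, 6 control and 5 susceptible D2). A library is 1 region of 1 mouse, and for 7 mice the mPFC and the vHPC were both sequenced. Resilient mice were sampled in both strains in the BNST only, and the vHPC held only 3 susceptible B6 mice.

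Microglia are the resident macrophages of the brain. CSF1R is the receptor for the growth factors CSF1 and IL-34 on which these cells depend, CX3CR1 binds the neuronal chemokine fractalkine, and P2RY12 senses nucleotides released by other cells. TMEM119 is a surface protein used as a marker, and TREM2 is a lipid-sensing receptor that signals through the adaptor TYROBP. C1QA, C1QB and C1QC are the chains of C1q, the recognition molecule that starts the classical complement pathway and is known for tagging synapses during development. In the brain C1q is made mostly by microglia, and its 3 genes lie side by side.

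On the GRCm38 genome *C1qb* (ENSMUSG00000036905) was annotated at chr4:136880129-136886187, *C1qc* (ENSMUSG00000036896) at chr4:136889804-136893065 and *C1qa* (ENSMUSG00000036887) at chr4:136895917-136898803, all on the minus strand and with no exon of another gene over their exons. The reads were counted on exons, so a value covers coding and untranslated exons together. *Tyrobp* lies at chr7:30413760-30417585 on the plus strand, and *Tmem119*, *Trem2* and *Tyrobp* also had no overlapping exon. Exons of *Csf1r* share 873 bases with *Hmgxb3*, those of *Cx3cr1* share 78 bases with *Gm33858* and those of *P2ry12* share 9 bases with *Med12l*, so reads there could not be assigned to 1 gene with certainty.

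RefSeq promoter windows on GRCm38.p6, 250 bases before to 50 bases after the gene start, were at hand for 5 members: *P2ry12*, *C1qb*, *C1qc*, *Cx3cr1* and *Trem2*. The RefSeq start can differ from the gene bounds given above. For *C1qc* it lies inside those bounds, as does most of the window. The windows of *C1qb* (chr4:136886151-136886450, minus strand) and *C1qc* (chr4:136892865-136893164, minus strand) are shown because these genes differed most between the strains. They are given 5′ to 3′ on the gene's strand, and capitals mark GAGGAA or its reverse complement TTCCTC, the core letters bound by the macrophage factor PU.1.
C1qb: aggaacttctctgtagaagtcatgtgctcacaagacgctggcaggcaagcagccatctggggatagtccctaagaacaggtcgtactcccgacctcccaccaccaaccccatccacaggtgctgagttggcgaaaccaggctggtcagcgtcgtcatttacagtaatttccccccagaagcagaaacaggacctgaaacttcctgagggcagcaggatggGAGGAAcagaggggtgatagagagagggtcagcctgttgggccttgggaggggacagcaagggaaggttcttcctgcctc
C1qc: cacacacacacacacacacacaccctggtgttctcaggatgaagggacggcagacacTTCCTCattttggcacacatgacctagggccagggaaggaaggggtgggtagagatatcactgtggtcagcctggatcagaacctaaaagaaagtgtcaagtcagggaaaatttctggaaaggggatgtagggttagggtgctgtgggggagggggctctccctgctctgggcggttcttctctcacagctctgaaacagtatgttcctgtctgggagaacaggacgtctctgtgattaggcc

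The letters GAGGAA occur at 1 place in the *C1qb* window, forward, and at 1 place in the *C1qc* window, on the reverse strand. Of the 5 member windows 3 held them (the other was *Trem2*), against 28.3% of all 32851 promoter windows. These are reference sequences of the B6 genome, and a match is a description of letters, not of binding.

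The BNST libraries held 11825757 to 25793910 counted reads, and the mPFC and vHPC tables give log2 CPM (library-size-scaled reads) without counts. *Tyrobp* was the least covered member in the BNST, with 14 to 217 reads per library, and *Csf1r* the most covered, with 428 to 2131. A single BNST library, D2 control replicate 2, stood apart. Its median correlation with the other BNST libraries was 0.865, against 0.914 for the next lowest. It had the lowest *C1qa*, *C1qb*, *C1qc*, *Csf1r*, *Trem2*, *Tmem119* and *Tyrobp* and the highest *P2ry12* of all BNST libraries. Called BNST results that use D2 controls are therefore given with and without it. The 3 tables were normalized separately and the regions were prepared with different kits, so levels in different regions stand side by side without a test. In bulk tissue fewer microglia and less RNA per microglial cell cannot be told apart.

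All 9 genes were detected in every library. In B6 controls *Csf1r* had the highest log2 CPM in each region, with a mean of 5.78 ± 0.08 (SD, n = 6) in the mPFC, 6.41 ± 0.16 (n = 5) in the BNST and 6.47 ± 0.05 (n = 6) in the vHPC. *Tyrobp*, whose exons are short, had the lowest, at 2.53 ± 0.18, 2.29 ± 0.40 and 2.96 ± 0.19. Per kilobase of exon the order changed. The length used merges all annotated exons of a gene (4946 bases for *Trem2*, 667 for *Tyrobp*), so this order depends on the annotation. On the log2 CPM per kilobase scale *P2ry12* (4.31) and *C1qa* (4.16) led in the mPFC, while *C1qb* led in the BNST (5.28) and vHPC (5.49), followed by *C1qa* (4.84 and 5.22). *Trem2* was lowest per kilobase in each region (0.66 in the BNST to 1.46 in the vHPC).

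**Figure D1:**
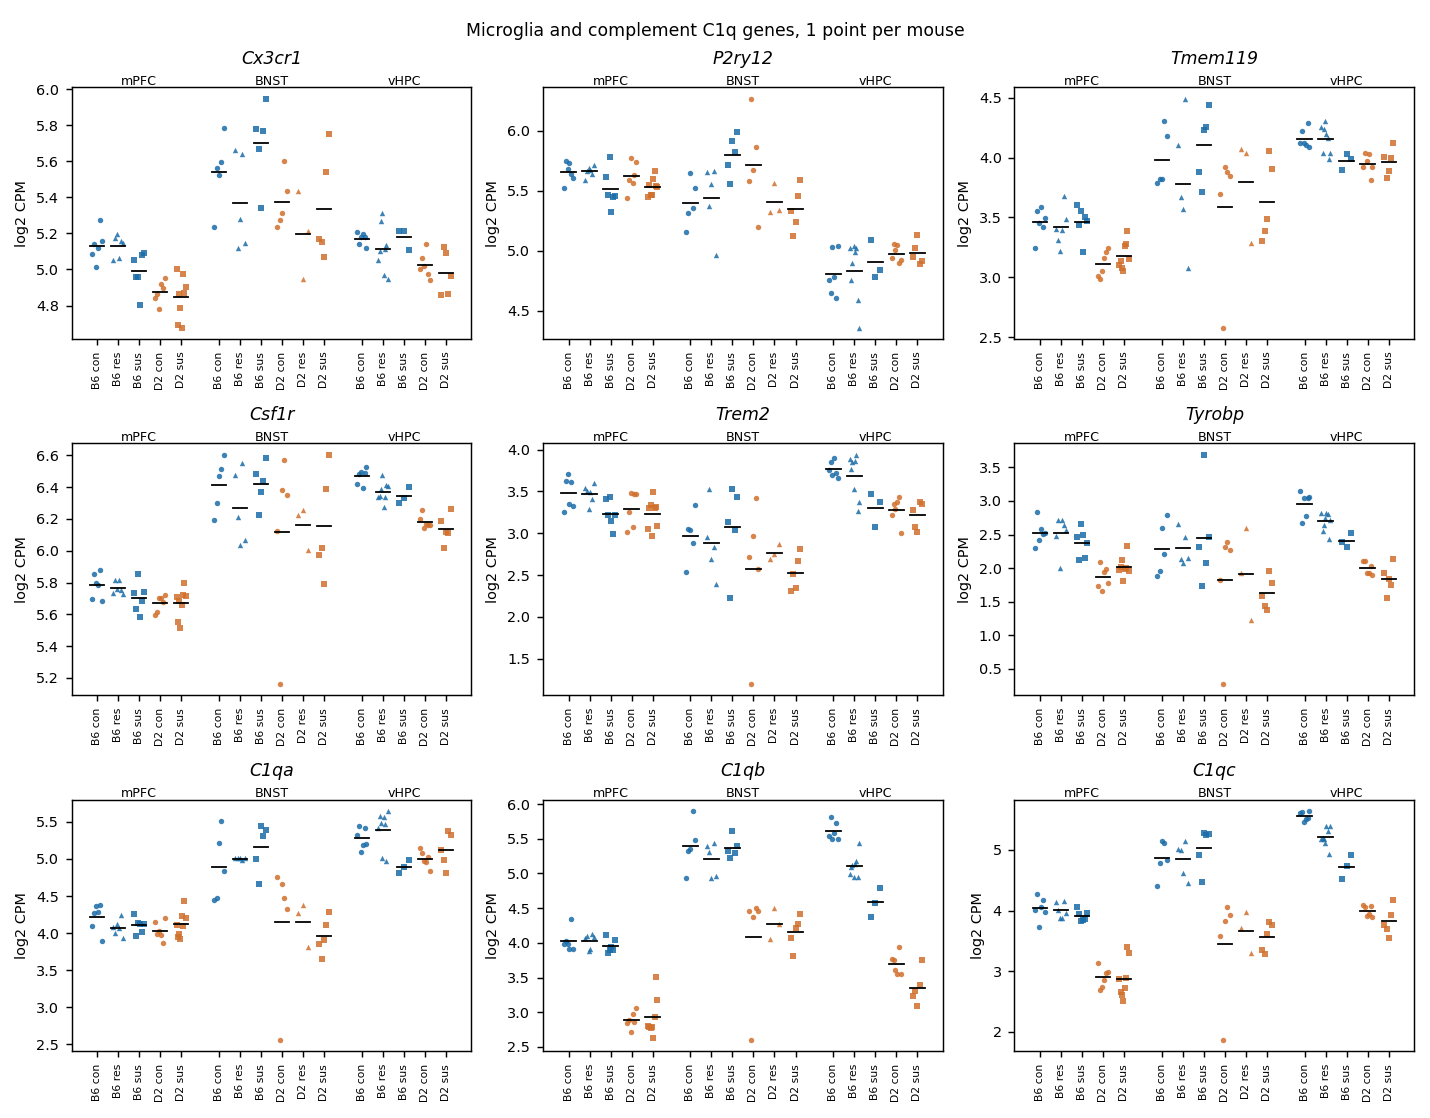
Level of each of the 9 genes (y axis, log2 CPM, a separate range for each gene) in each group of control (con), resilient (res) and susceptible (sus) mice of each region; each point is a mouse, black bars are group means, B6 is blue and D2 orange. *C1qb* and *C1qc* separate the strains in all 3 regions, and D2 control replicate 2 lies lowest of the BNST mice in 7 panels.

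The widest contrast was between the strains. Levels of *C1qb* and *C1qc* in every D2 mouse lay under those in every B6 mouse of the same region, whether defeated or not. In the mPFC *C1qb* spanned 3.85 to 4.34 log2 CPM (median 3.98) in 18 B6 mice and 2.63 to 3.51 (median 2.85) in 14 D2 mice. *C1qc* spanned 3.73 to 4.27 (median 3.97) in B6 and 2.51 to 3.398 (median 2.86) in D2. The strain ranges of the other 7 genes overlapped in this region. The same separation was seen for 2.57% of all mPFC genes.

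In the BNST *C1qb* spanned 4.93 to 5.90 log2 CPM in 15 B6 mice and 2.6 to 4.50 in 13 D2 mice, and *C1qc* spanned 4.41 to 5.29 and 1.86 to 4.06. These were the only members whose strain ranges did not overlap there, a pattern shared by 0.548% of BNST genes. In the vHPC *C1qb* spanned 4.38 to 5.81 in 17 B6 mice and 3.09 to 3.94 in 11 D2 mice, and *C1qc* 4.51 to 5.64 and 3.54 to 4.2. *Tyrobp* (2.32 to 3.152 against 1.55 to 2.1) and *Csf1r* (6.27 to 6.52 against 6.02 to 6.26) were also separate in the vHPC, where 5.69% of genes showed such a gap with D2 lower.

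Among unstressed controls, 5 of the 9 genes were lower in D2 than in B6 mPFC and none was higher, while 27.8% of all mPFC genes differed in either direction. *C1qb* fell by 1.137 on the log2 scale (SE 0.10, adjusted p = 5.7e-10, limma), a 2.2-fold difference, and *C1qc* fell by 1.1 (SE 0.12, adjusted p = 7.8e-09). *Tyrobp* was lower by a log2 fold change of -0.66 (SE 0.11, adjusted p = 3.5e-05), *Tmem119* by -0.35 (SE 0.07, adjusted p = 0.00064) and *Cx3cr1* by -0.26 (SE 0.06, adjusted p = 0.00068). *C1qa*, the neighbour of *C1qc*, had a log2 fold change of -0.18 (SE 0.08, adjusted p = 0.10), and *P2ry12* one of -0.03 (SE 0.06).

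In BNST controls 2 of the 9 genes were called lower in D2, against 2.51% of all genes called. *C1qb* in the 5 B6 controls was 4.93, 5.33, 5.35, 5.90 and 5.49 log2 CPM. In the 5 D2 controls it was 4.45, 2.6, 4.38, 4.50 and 4.46, all under the lowest B6 value. The log2 fold change was -1.21 (SE 0.23, adjusted p = 0.0016, edgeR quasi-likelihood), and -0.98 (adjusted p = 0.00019) without D2 control replicate 2. For *C1qc* it was -1.26 (SE 0.26, adjusted p = 0.0035), and -1.03 (adjusted p = 0.0012) without that mouse. Neither gene was called when only these 10 libraries entered the fit (adjusted p = 0.24 for each). *C1qa* had a log2 fold change of -0.63 (SE 0.26, adjusted p = 0.28), or -0.39 (adjusted p = 0.41) without replicate 2.

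In vHPC controls 8 of the 9 genes were lower in D2, all but *P2ry12* (log2 fold change 0.17, SE 0.10, adjusted p = 0.15), in a comparison that called 59.3% of all genes. *C1qb* fell by 1.92 (SE 0.10, adjusted p = 9.5e-15), a 3.78-fold difference, and *C1qc* fell by 1.57 (SE 0.09, adjusted p = 4.7e-14), a 2.96-fold difference. *Tyrobp* was next (log2 fold change -0.96, SE 0.09, adjusted p = 1e-09), followed by *Trem2* (-0.48, SE 0.11, adjusted p = 0.00039) and *Csf1r* (-0.29, SE 0.04, adjusted p = 1e-06). *C1qa* (-0.27, SE 0.11, adjusted p = 0.032), *Tmem119* (-0.21, SE 0.06, adjusted p = 0.0031) and *Cx3cr1* (-0.15, SE 0.06, adjusted p = 0.030) differed least. With library preparation set as a covariate 4 of these 8 calls remained: those of *C1qb*, *C1qc*, *Tyrobp* and *Csf1r*.

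The strain comparison was repeated in susceptible mice, which are other animals than the controls; this comparison was added after the data had been seen. In the mPFC 4 members were lower in D2 (17.5% of genes called): *C1qb* (log2 fold change -1.03, SE 0.10, adjusted p = 1e-09), *C1qc* (-1.05, SE 0.11, adjusted p = 1.1e-08), *Tyrobp* (-0.35, SE 0.10, adjusted p = 0.017) and *Tmem119* (-0.28, SE 0.07, adjusted p = 0.0032). Without the susceptible B6 mouse of replicate 3 *Tyrobp* was not called (-0.29, adjusted p = 0.061). In the BNST 3 were lower (5.18% of genes called), *C1qc* by -1.49 (SE 0.26, adjusted p = 0.00048), *C1qb* by -1.21 (SE 0.23, adjusted p = 0.0015) and *C1qa* by -1.21 (SE 0.26, adjusted p = 0.0049). In the vHPC 5 were lower (32.7% of genes called): *C1qb* (-1.23, SE 0.12, adjusted p = 2.1e-08), *C1qc* (-0.90, SE 0.11, adjusted p = 4.7e-07), *Tyrobp* (-0.57, SE 0.11, adjusted p = 0.00036), *Csf1r* (-0.21, SE 0.05, adjusted p = 0.0025) and *Cx3cr1* (-0.20, SE 0.07, adjusted p = 0.038). None of these 5 calls remained with library set as a covariate, where *C1qb* had a log2 fold change of -0.71 (adjusted p = 0.057). In BNST resilient mice, with 3 D2 animals, only *C1qc* was called lower (-1.18, SE 0.31, adjusted p = 0.046; 1.55% of genes called), and the call was lost without any 1 of 7 of the 8 mice, all but B6 resilient replicate 5.

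**Figure D2:**
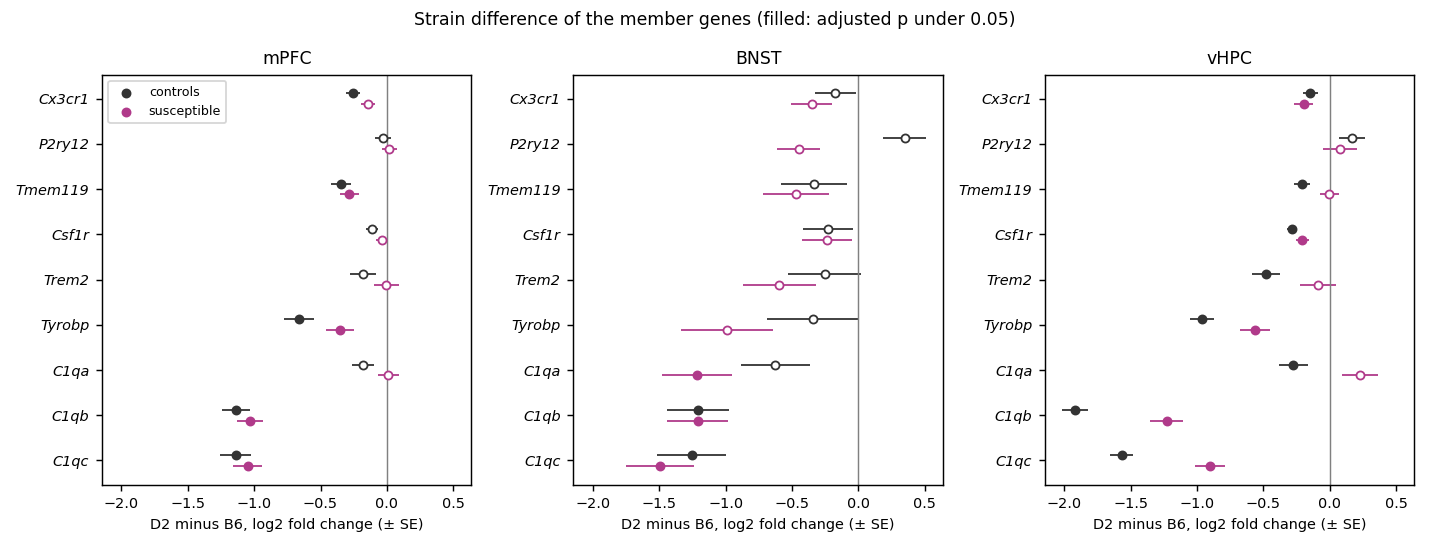
D2 minus B6 log2 fold change of each gene (x axis, ± SE) in control (black) and susceptible (purple) mice of each region; filled points have an adjusted p under 0.05. *C1qb* and *C1qc* lie near or under -1 in the mPFC and BNST, and *P2ry12* has no filled point.

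Library preparation sets did not separate the strains in the mPFC and BNST. Each of the 5 mPFC sets and 2 BNST sets contained mice of both strains. With set as a covariate the log2 fold change between controls was -1.13 for *C1qb* (SE 0.11, adjusted p = 2.7e-08, limma) and -1.14 for *C1qc* (SE 0.13, adjusted p = 2.4e-07) in the mPFC. In the BNST it was -1.21 (SE 0.23, adjusted p = 0.0015, edgeR) and -1.26 (SE 0.25, adjusted p = 0.0027). The mPFC values had already been adjusted for set by the authors, so that fit is no independent check of set. The BNST counts had not been adjusted. In the vHPC 5 of 10 sets contained both strains. Only set 8 held B6 and D2 mice of the same phenotype, 1 susceptible mouse of each strain.

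The 3 C1q genes did not differ between the strains by the same amount. The difference between *C1qb* and *C1qa* within a mouse, on the log2 CPM scale, was -0.18 ± 0.17 (SD, n = 6) in B6 controls and -1.14 ± 0.14 (n = 6) in D2 controls of the mPFC. The strains were 0.96 apart with no overlap (exact permutation test over mice, two-sided p = 0.0022, the smallest that 6 against 6 allows). This measure was chosen after the values were seen, as 1 of 12 such tests, and its adjusted p was 0.0043. In susceptible mPFC mice the means were -0.15 ± 0.06 (n = 6) and -1.19 ± 0.20 (n = 8; exact permutation p = 0.00067, adjusted p = 0.0040). *C1qc* minus *C1qa* differed alike, from -0.18 ± 0.25 in B6 to -1.14 ± 0.16 in D2 controls (exact permutation p = 0.0022, adjusted p = 0.0043).

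The shift was widest in the vHPC, where *C1qb* minus *C1qa* was 0.33 ± 0.07 in B6 controls and -1.31 ± 0.12 in D2 controls (n = 6 each, exact permutation p = 0.0022, adjusted p = 0.0043). It was -0.31 ± 0.12 in the 3 susceptible B6 and -1.77 ± 0.16 in the 5 susceptible D2 mice (exact permutation p = 0.036, the smallest that 3 against 5 allows; adjusted p = 0.039). In the BNST it was smaller: *C1qb* minus *C1qa* was 0.51 ± 0.27 in B6 and -0.07 ± 0.20 in D2 controls (n = 5 each, exact permutation p = 0.016, adjusted p = 0.021), with the lowest B6 and the highest D2 mouse both at 0.14. Without D2 control replicate 2 this strain difference was -0.61, against -0.58 with it, and that of *C1qc* minus *C1qa* was -0.67 either way. In susceptible BNST mice the means were 0.21 ± 0.24 and 0.19 ± 0.07 (n = 5 each, exact permutation p = 0.89), and all 3 C1q genes were lower in D2 there. *C1qc* minus *C1qa* still differed in these mice (-0.13 ± 0.05 and -0.40 ± 0.11, exact permutation p = 0.0079, adjusted p = 0.012).

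**Figure D3:**
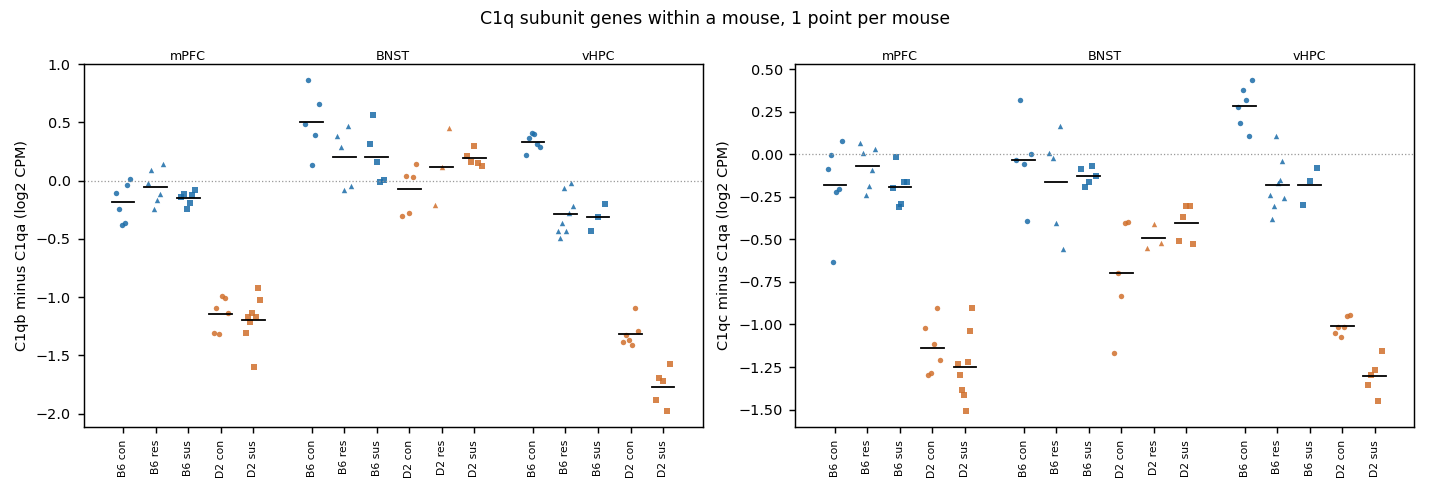
*C1qb* minus *C1qa* (left) and *C1qc* minus *C1qa* (right) within each mouse (y axis, difference in log2 CPM), by group and region; points are mice, bars are means, B6 is blue and D2 orange. D2 mice lie under B6 mice without overlap in the mPFC and vHPC, and B6 controls of the vHPC lie above defeated B6 mice for *C1qb*.

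Stress had no called effect on the 9 genes in the mPFC. In susceptible against control B6 mice 0 of 9 were called by limma, while 2.22% of all genes were, and 3 members had an unadjusted p under 0.05. The member with the lowest p was *Cx3cr1*, at 5.02 to 5.27 log2 CPM (median 5.13) in controls and 4.804 to 5.09 (median 5.01) in susceptible mice. Its log2 fold change was -0.14 (SE 0.06, adjusted p = 0.16). *Trem2* had -0.24 (SE 0.10, adjusted p = 0.18), and 8 of the 9 values were negative. In resilient against control B6 mice the 9 log2 fold changes lay between -0.14 and 0.01 and neither a member nor any other gene was called (0%), with 0 members and 731 genes at an unadjusted p under 0.05. *C1qa* had the lowest p there (-0.14, SE 0.08).

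Susceptible and resilient B6 mice also did not differ in a called member in the mPFC (2.02% of genes called, 3 members at an unadjusted p under 0.05). *Cx3cr1* again had the lowest p (-0.14, SE 0.06, adjusted p = 0.15), and 1 member was called when susceptible replicate 3 was left out. In D2 mice susceptible and control levels differed by -0.09 to 0.16 with no gene called (0%; 0 members and 734 genes at an unadjusted p under 0.05), with *P2ry12* at the lowest p (-0.09, SE 0.06). The test of a strain difference in the response to stress called no gene in the mPFC (0%; 1 member, *Tyrobp*, and 1766 genes at an unadjusted p of at most 0.05), and *Tyrobp* had a difference of 0.31 (SE 0.15, adjusted p = 0.53).

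In the BNST no member was called in a stress comparison by edgeR or DESeq2. Neither were other genes in susceptible against control B6 mice (0%; 1 member and 1115 genes at an unadjusted p under 0.05), resilient against control B6 mice (0%; 0 members and 328 genes), resilient against control D2 mice (0%; 0 members and 953 genes) or susceptible against control D2 mice (0%; 1 member and 1056 genes). In susceptible against resilient B6 mice 0.00571% of genes, a single gene that is no member, was called, and *Cx3cr1* was the member with the lowest p (0.32, SE 0.15, adjusted p = 0.64). The lowest p among members in resilient mice belonged to *Cx3cr1* in B6 (-0.16, SE 0.15) and *P2ry12* in D2 (-0.34, SE 0.19, adjusted p = 0.90; -0.18, adjusted p = 0.83, without D2 control replicate 2).

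*P2ry12* had differences of opposite sign in the strains of the BNST, none of which passed the threshold. In B6 its log2 CPM was 5.16 to 5.65 (median 5.36) in controls and 5.56 to 5.99 (median 5.83) in susceptible mice, a log2 fold change of 0.40 (SE 0.16, adjusted p = 0.71). In D2 it was 5.195 to 6.27 (median 5.67) in controls and 5.13 to 5.59 (median 5.33) in susceptible mice, a log2 fold change of -0.40 (SE 0.16, adjusted p = 0.70; -0.24, adjusted p = 0.50, without D2 control replicate 2). The difference between the strains' responses was -0.80 (SE 0.23, unadjusted p = 0.0018, adjusted p = 0.15), in a test that called no gene (0%; 1 member and 2004 genes at an unadjusted p under 0.05). Without D2 control replicate 2, which had the highest *P2ry12*, it was -0.64 (adjusted p = 0.13). Without that mouse *C1qa* in susceptible D2 mice had a log2 fold change of -0.58 (SE 0.19, adjusted p = 0.31), against -0.35 (SE 0.26) with it.

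The vHPC differed. *C1qb* was 5.49 to 5.81 log2 CPM (median 5.57) in the 6 B6 controls, 4.95 to 5.43 (median 5.11) in the 8 resilient mice, and 4.38, 4.58 and 4.79 in the 3 susceptible mice. The 3 groups did not overlap. *C1qc* was 5.46 to 5.64 (median 5.57) in controls, 4.93 to 5.403 (median 5.2) in resilient mice, and 4.51, 4.74 and 4.91 in susceptible mice, again without overlap. *C1qa* did not follow this order: its range was 5.09 to 5.44 in controls, 4.97 to 5.65 in resilient mice and 4.81 to 4.99 in susceptible mice. How many of all vHPC genes separated these 3 groups without overlap was not counted, so this pattern cannot be called particular to these genes. Between susceptible and control B6 mice 40.6% of all genes were called.

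In susceptible against control B6 mice 7 of the 9 vHPC genes were lower and none was higher, while 40.6% of all genes were called. *C1qb* fell by 1.03 on the log2 scale (SE 0.12, adjusted p = 5.9e-07, limma), a 2.04-fold difference, *C1qc* fell by 0.84 (SE 0.11, adjusted p = 1.8e-06) and *Tyrobp* fell by 0.55 (SE 0.11, adjusted p = 0.00037). *Trem2* (log2 fold change -0.46, SE 0.13, adjusted p = 0.0074), *C1qa* (-0.38, SE 0.13, adjusted p = 0.025), *Tmem119* (-0.19, SE 0.07, adjusted p = 0.039) and *Csf1r* (-0.12, SE 0.05, adjusted p = 0.045) changed less. *Cx3cr1* (0.01, SE 0.07) and *P2ry12* (0.10, SE 0.12, adjusted p = 0.55) were not called. The median of the 9 log2 fold changes was -0.38, and that of all genes tested was -0.01. Without susceptible replicate 1 there were 4 calls and without replicate 2 there were 3.

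Resilient B6 mice had 3 members under control levels in the vHPC (10.84% of genes called): *C1qb* (-0.50, SE 0.09, adjusted p = 0.00049), *C1qc* (-0.35, SE 0.08, adjusted p = 0.0054) and *Tyrobp* (-0.27, SE 0.08, adjusted p = 0.039). In susceptible against resilient mice 6 members were lower (27.6% of genes called). *C1qb* (-0.52, SE 0.12, adjusted p = 0.0050), *C1qa* (-0.50, SE 0.13, adjusted p = 0.0092) and *C1qc* (-0.49, SE 0.10, adjusted p = 0.0037) differed by like amounts, followed by *Trem2* (-0.38, SE 0.12, adjusted p = 0.028), *Tyrobp* (-0.29, SE 0.10, adjusted p = 0.043) and *Tmem119* (-0.18, SE 0.07, adjusted p = 0.049). This count was 3 without susceptible replicate 2, susceptible replicate 3 or resilient replicate 6. The 3 comparisons within B6 share mice with each other.

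In D2 vHPC no member was called after stress. *C1qb* was 3.55 to 3.94 (median 3.68) in D2 controls and 3.23, 3.3, 3.09, 3.399 and 3.75 in susceptible D2 mice, so 4 of 5 defeated mice lay under all controls. Its log2 fold change of -0.34 (SE 0.10, adjusted p = 0.067) had the lowest p of the members, in a comparison that called 4.28% of genes. Without susceptible replicate 5, the highest of them, it was -0.44 (adjusted p = 0.0092). That mouse was the only susceptible D2 mouse sharing a library preparation set with a D2 control, and it lay 0.20 above that control. With library set as a covariate the *C1qb* difference in D2 reversed in sign. The test of the difference between the strains' responses was positive for *C1qb* (0.69, SE 0.16, adjusted p = 0.038) and *C1qc* (0.67, SE 0.14, adjusted p = 0.021), a smaller fall in D2 than in B6, among 0.782% of genes called. It was not passed by *C1qa* (0.50, SE 0.17, adjusted p = 0.16). Neither gene passed without susceptible B6 replicate 1 or replicate 2, and *C1qb* alone missed the threshold without any 1 of 8 further mice (B6 controls 1, 2 and 5, D2 controls 3, 4 and 6, D2 susceptible 4 and 5).

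**Figure D4:**
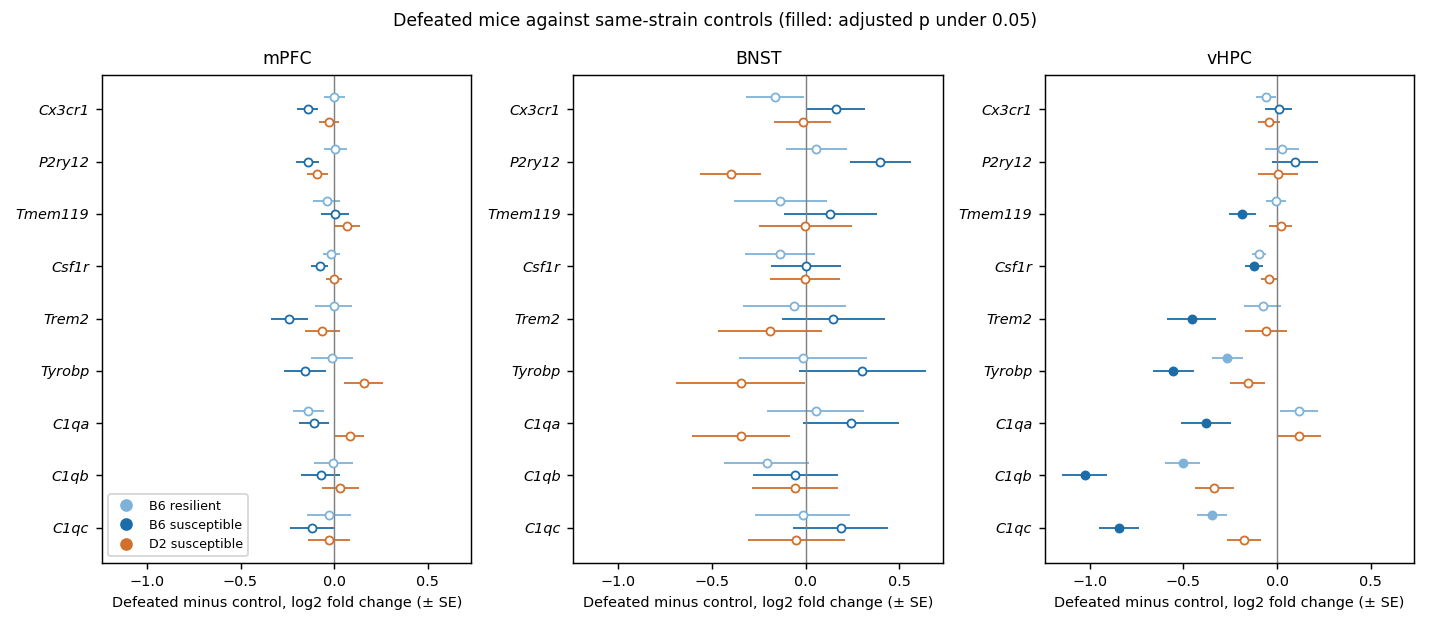
Log2 fold change of each gene (x axis, ± SE) in resilient B6 (light blue), susceptible B6 (dark blue) and susceptible D2 mice (orange) against controls of their strain; filled points have an adjusted p under 0.05. Filled points occur in the vHPC only, in B6 mice, with *C1qb* and *C1qc* farthest to the left.

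In the vHPC the groups were spread unevenly over 10 library preparation sets, and the deposited values had already been adjusted for these sets. No set held both a control and a defeated B6 mouse. Controls were in sets 5, 6 and 9, resilient mice in sets 1, 2, 3 and 7, and susceptible mice in sets 1, 8 and 10. Set 1 alone held resilient and susceptible B6 mice, with *C1qb* at 4.99 and 5.09 in the former and 4.58 in the latter. Set 8 alone held control and susceptible D2 mice, at 3.55 and 3.75. With library set as a covariate the susceptible and control B6 mice differed in 2 members, *C1qb* (-1.86) and *C1qc* (-1.47), the resilient mice in 0 from either group, and the strains' responses in 0. With sequencing set as a covariate the resilient mice differed from controls in 0 members and the susceptible mice in 5. Of the 6 B6 controls only the 1 in set 5 shared a set with another group, 2 susceptible D2 mice, so this fit compares B6 controls with any other group through that mouse. No comparison of control and defeated B6 mice within a set was possible.

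**Figure D5:**
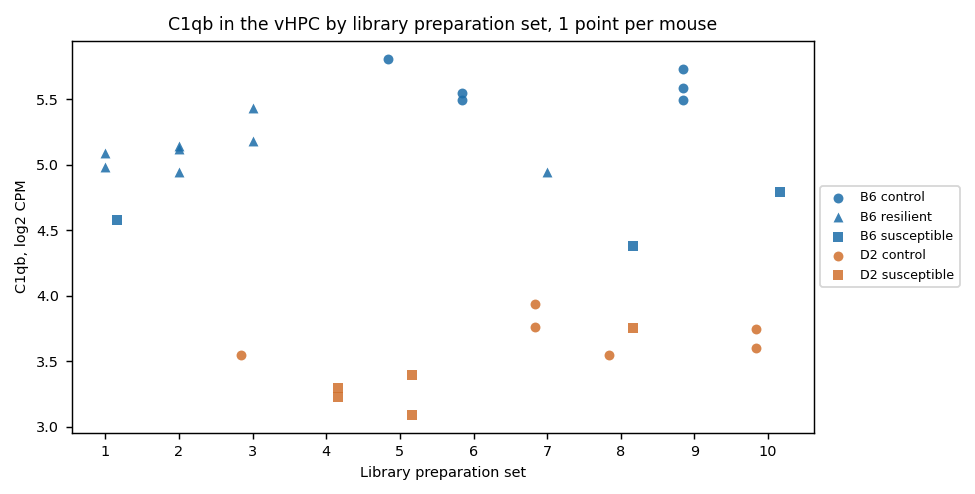
*C1qb* (y axis, log2 CPM) in each vHPC mouse by library preparation set (x axis); B6 is blue and D2 orange, circles are controls, triangles resilient and squares susceptible mice. B6 controls occupy sets that hold no defeated B6 mouse, and set 5 is the only set where a B6 control stands beside mice of another group.

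Markers of other cell types moved with these results, and their part in them was not tested. In the vHPC 8 of 8 oligodendrocyte markers, 6 of 8 endothelial markers, 4 of 8 choroid plexus markers and 2 of 8 meningeal fibroblast markers were lower in susceptible than in control B6 mice. That comparison called 40.6% of all genes in either direction. Astrocyte markers split (2 higher, 3 lower of 8), neuron markers were mostly higher (5 higher, 1 lower of 8), and of 5 red blood cell genes only *Hba-a2* was called. The summed oligodendrocyte markers were 2358 to 2644 CPM in controls and 1305 to 1497 CPM in susceptible mice. Perivascular macrophages, which can also make C1q, had 4 of 8 markers in the vHPC table; 2 fell, *Mrc1* (-0.83, SE 0.16, adjusted p = 0.00023) and *F13a1* (-0.39, SE 0.13, adjusted p = 0.017). Their summed level was 16.7 to 25.3 CPM in controls and 11.5 to 15.1 CPM in susceptible mice. Of 8 blood leukocyte markers only *Ccr2* was in this table, at 1.0 to 2.4 and 0.3 to 1.1 CPM.

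*Hba-a2*, a gene of the alpha chain of haemoglobin, moved in the same direction as *C1qb* and *C1qc* in the vHPC and by more. It was singled out from 5 red blood cell genes for that reason. The 5 genes summed to 50.4 to 82.3 CPM in B6 controls and 35.9 to 53.4 CPM in susceptible B6 mice. In D2 the sum did not fall, at 37.9 to 46.5 CPM in controls and 37.9 to 66.0 CPM in susceptible mice. *Hba-a2* was 3.47 to 5.11 log2 CPM (median 4.51) in B6 controls, 0.67 to 1.97 (median 1.28) in resilient and -0.29 to 0.43 (median -0.06) in susceptible B6 mice. Its log2 fold change was -4.39 (SE 0.39, adjusted p = 6.1e-09) in susceptible and -3.10 (SE 0.30, adjusted p = 4.5e-08) in resilient B6 mice. In susceptible D2 mice it was -2.28 (SE 0.33, adjusted p = 8.8e-05). D2 controls had -5.53 to -4.05 log2 CPM, a strain difference of -9.26 (SE 0.32, adjusted p = 1.9e-18). *Hba-a2* was also lower in D2 than in B6 controls of the mPFC (-5.93) and BNST (-7.16, or -7.00 without D2 control replicate 2). It was called in no stress comparison of those regions, where susceptible B6 mice differed from controls by -0.18 (adjusted p = 0.91) and -0.59 (adjusted p = 0.92). With library set as a covariate the susceptible B6 mice of the vHPC still differed from controls (-4.69, SE 0.85, adjusted p = 0.0098). *Hba-a2* has a near-identical neighbour, *Hba-a1*, so its reads are uncertain. Its part in the C1q results was not tested.

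Markers also moved in the other vHPC comparisons within B6. In resilient against control mice 4 of 8 oligodendrocyte markers, 1 endothelial and 1 astrocyte marker and *Mrc1* (-0.45, SE 0.12, adjusted p = 0.014) were lower, and 1 neuron marker was higher. In susceptible against resilient mice 5 of 8 oligodendrocyte markers, 3 endothelial markers, 1 choroid plexus marker and *F13a1* (-0.39, SE 0.12, adjusted p = 0.021) were lower. Astrocyte markers split there (2 higher, 3 lower), and 4 neuron markers were higher and 1 lower. In susceptible against control D2 mice 2 oligodendrocyte markers and 1 endothelial marker were lower. Of all genes, 10.84%, 27.6% and 4.28% were called in these 3 comparisons, in this order.

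In the strain comparison of vHPC controls 8 of 8 oligodendrocyte, endothelial and choroid plexus markers were lower in D2, and summed perivascular macrophage markers were 16.7 to 25.3 CPM in B6 and 9.7 to 12.6 CPM in D2. In the mPFC all 8 oligodendrocyte markers, 4 of 8 astrocyte and 3 of 8 endothelial markers were lower in D2 controls, and no perivascular macrophage marker was called (23.98 to 30.8 CPM against 20.2 to 33.4 CPM summed over 4 of 8). The same 8 oligodendrocyte markers were lower in susceptible than in control B6 mPFC, where no C1q gene was called. In BNST controls no marker of these types was called between the strains except *Hba-a2*, with or without D2 control replicate 2. The perivascular macrophage sum was 5.1 to 11.0 CPM in B6 and 6.3 to 9.0 CPM in D2, and the D2 range was the same without that mouse. Of all genes, 59.3% were called between the strains in vHPC controls, 27.8% in mPFC controls and 2.51% in BNST controls. Between susceptible and control B6 mPFC the share was 2.22%.

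The strain comparison in susceptible mice came with other shifts. In the BNST, where all 3 C1q genes were lower in D2, 3 of 8 oligodendrocyte markers, *Slc1a3* of astrocytes, *Nefm* of neurons, *Igf2* of meningeal fibroblasts and *Hba-a2* were lower too. In the vHPC 8 of 8 oligodendrocyte markers, 5 of 8 endothelial markers, 2 astrocyte markers and *Mrc1* (-0.85, SE 0.16, adjusted p = 0.00020) were lower in D2. In the mPFC none of the 8 oligodendrocyte markers was called, 3 astrocyte markers and 1 endothelial marker were lower, and *C1qb* and *C1qc* were lower as given above. These comparisons called 5.18% of all genes in the BNST, 32.7% in the vHPC and 17.5% in the mPFC.

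A further 24 microglia genes were measured in each region. In D2 controls 9 were lower and none higher in the mPFC (27.8% of all genes called), 3 lower and 1 higher in the BNST (2.51%), and 13 lower and 2 higher in the vHPC (59.3%). Without D2 control replicate 2 the BNST count was 1 lower and none higher (2.75% of all genes), the call of *Fcrls*. *Fcrls*, an Fc receptor-like protein typical of microglia, differed most. It fell by 2.22 in the mPFC (SE 0.10, adjusted p = 2.5e-16), by 2.5 in the BNST (SE 0.24, adjusted p = 6.4e-08; by 2.52, adjusted p = 2.4e-07, without D2 control replicate 2) and by 2.98 in the vHPC (SE 0.15, adjusted p = 4.2e-15). *Siglech* fell by 0.51 in the mPFC and by 0.88 in the vHPC, whereas the lysosomal protease *Ctss* was higher in D2 BNST (0.58, SE 0.15, adjusted p = 0.040), a call lost without D2 control replicate 2 (0.51, SE 0.15, adjusted p = 0.083). The median log2 fold change of the 24 genes was -0.12 in the mPFC, -0.0010 in the BNST (-0.12 without D2 control replicate 2) and -0.27 in the vHPC, with medians of 0.0016, 0.038 and 0.0068 over all genes. Their summed level was 401 to 456 CPM in B6 and 351 to 394 CPM in D2 controls of the mPFC, and 353 to 383 CPM and 268 to 289 CPM in the vHPC. In the BNST the sums overlapped, at 394 to 513 CPM in B6 and 374 to 529 CPM in D2.

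After stress 2 of the 24 genes were lower in susceptible than in control B6 mPFC, the pore-forming *Mpeg1* (-0.46, SE 0.07, adjusted p = 0.0013) and *Ctss* (-0.25, SE 0.07, adjusted p = 0.046). In the vHPC 11 were lower and 1 higher (40.6% of all genes called), among them *Fcrls* (-1.40, SE 0.18, adjusted p = 2.4e-06), *Siglech* (-0.53, SE 0.07, adjusted p = 5.8e-06) and the Fc receptor *Fcgr3* (-0.54, SE 0.12, adjusted p = 0.0014). The median of the 24 was -0.15 there. Resilient B6 mice had 4 lower, and susceptible D2 mice 2, *Siglech* (-0.26, SE 0.06, adjusted p = 0.015) and *Fcrls* (-0.58, SE 0.16, adjusted p = 0.031). None was called after stress in the BNST. All genes were called at 2.22% in susceptible B6 mPFC, 10.84% in resilient B6 vHPC and 4.28% in susceptible D2 vHPC, each against controls.

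The complement cascade beyond C1q was covered by 15 genes, of which 10 or 11 were tested in each region. In D2 controls 4 were lower and 1 higher in the mPFC, including the protease *C1s1* (-0.97, SE 0.19, adjusted p = 0.00031), which acts with C1q, and the receptor *C3ar1* (-0.65, SE 0.10, adjusted p = 1.2e-05). In the vHPC 8 of 10 were lower, including the inhibitor *Cd55* (-0.82, SE 0.093, adjusted p = 3.5e-08), and in the BNST none was called. In susceptible B6 vHPC 7 of 10 were lower than in controls, including the protease *C1ra* (-1.14, SE 0.22, adjusted p = 0.00026) and *Cd55* (-0.55, SE 0.11, adjusted p = 0.00062). The median of these 10 was -0.43, and 59.3% and 40.6% of all genes were called in these vHPC comparisons. In susceptible B6 mPFC 1 was higher than in controls, the inhibitor *Cd59a* (0.94, SE 0.19, adjusted p = 0.014). All genes were called at 27.8% between the strains in mPFC controls, 2.51% in BNST controls and 2.22% in susceptible against control B6 mPFC.

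Ligands and signalling partners of the member receptors were covered by 12 genes. *Il34*, which encodes a ligand of CSF1R, was higher in D2 controls in the mPFC (0.23, SE 0.07, adjusted p = 0.0082) and vHPC (0.41, SE 0.05, adjusted p = 2.6e-08). It was also higher in susceptible B6 vHPC (0.24, SE 0.06, adjusted p = 0.0015). *Entpd1*, an enzyme that breaks down nucleotides such as those P2RY12 senses, was lower in the same 3 comparisons (-0.27, -0.78 and -0.48). In all, 2 of the 12 genes were called in mPFC controls (1 higher), 7 in vHPC controls (1 higher) and 4 in susceptible B6 vHPC (1 higher), and none in BNST controls. All genes were called at 27.8%, 59.3% and 40.6% in the first 3 of these, so the shares of the 12 genes were not above the background.

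Of 16 genes of activated microglia 9 were tested in the mPFC and vHPC and 8 in the BNST. The lipase *Lpl* was higher in D2 controls in the mPFC (1.04, SE 0.15, adjusted p = 4.3e-06) and vHPC (2.16, SE 0.07, adjusted p = 1.1e-18) and in susceptible B6 vHPC (1.2, SE 0.09, adjusted p = 2.5e-10). *Gpnmb* and *Spp1* were lower in susceptible B6 vHPC (-1.40, SE 0.18 and -1.51, SE 0.28). Counts were 2 higher and 5 lower of 9 in susceptible against control B6 vHPC, the same in D2 against B6 vHPC controls, 1 and 1 in mPFC controls, 0 and 1 in susceptible B6 mPFC, and none in the BNST. All genes were called at 40.6%, 59.3%, 27.8% and 2.22% in the first 4 of these, in this order. *Lpl* and *Spp1* are also made by other brain cells.

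Within groups the C1q genes varied together. The correlation of deviations from the group means between *C1qb* and *C1qc* was r = 0.75 (rho = 0.73) over 32 mPFC mice, 0.91 (rho = 0.82) over 28 BNST mice and 0.83 (rho = 0.81) over 28 vHPC mice, with adjusted permutation p of 0.00026, 8e-05 and 6e-05 over 12 relations. The adjusted p of rho was 4e-05, 4.8e-05 and 4.8e-05. Without the 2 mice farthest from the median r was 0.64, 0.66 and 0.74. *C1qa* correlated with *C1qb* at r = 0.56 (rho = 0.45), 0.87 (0.73) and 0.72 (0.80), with adjusted permutation p of 0.0055, 0.00055 and 0.00018 for r and 0.021, 0.00086 and 4e-05 for rho. In the mPFC this rested on 2 mice, without which r was 0.35 (adjusted permutation p = 0.099). In the BNST r fell to 0.49 without 2 mice, 1 of which was D2 control replicate 2, and in the vHPC it was 0.75.

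*C1qa* and *C1qc* gave r = 0.54 (rho = 0.50), 0.89 (0.79) and 0.79 (0.82), with adjusted permutation p of 0.0088, 0.00019 and 6e-05 for r and 0.012, 0.00012 and 4e-05 for rho, and r = 0.42, 0.70 and 0.77 without 2 mice. The receptor *Trem2* and its adaptor *Tyrobp* were less close. Their r was 0.39 (rho = 0.32), 0.72 (0.60) and 0.29 (0.28) in the same order of regions (adjusted permutation p = 0.028, 0.00094 and 0.14 for r, and 0.10, 0.0029 and 0.18 for rho). Without 2 mice r was 0.32, 0.39 and 0.16, and the mPFC value no longer passed (adjusted permutation p = 0.099).

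The members did not all vary with each other. The correlation of a gene's deviations with the mean of the other 8 was highest for *Csf1r* in the mPFC (0.77) and *C1qc* in the BNST (0.94) and vHPC (0.71). For *Cx3cr1* it was 0.27, 0.37 and -0.31 in the mPFC, BNST and vHPC, and for *P2ry12* 0.41, -0.01 and -0.05. The BNST values of this paragraph include D2 control replicate 2, which was lowest for most members and highest for *P2ry12*. Values without that mouse are not given. Among 16033 other genes, those closest to the mean of the members in all 3 regions were *B4galt3* (lowest r of the 3 regions 0.64), *Uqcr11* (0.62), *Nenf* (0.57), *Dedd2* (0.57) and *Ramp1* (0.55), none of which is in a list used here. The lowest r of the 24 further microglia genes ranged from -0.45 to 0.41, with a median of -0.0065. These are descriptions over the 32, 28 and 28 mice of the regions, whose values share library depth and composition.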

How the data were processed

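The authors depleted ribosomal RNA, prepared libraries with ScriptSeq v2 (mPFC), Ovation (BNST) or Nextera (vHPC) kits, aligned reads of both strains to GRCm38, the B6 genome, and counted reads per gene with HTSeq. For the mPFC and vHPC they deposited log2 CPM from limma voom, adjusted with ComBat for library set and, in the vHPC, sequencing set; the variables protected in that step are not given in the sources used here. For the BNST the deposited values are raw counts, tested on at least 1 CPM in at least 6 libraries (17515 of 48795 genes). All 18946 mPFC and 19559 vHPC genes were tested. Symbols matched 99.56%, 99.65% and 99.61% of the mPFC, BNST and vHPC identifiers.

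Log2 CPM values were tested with limma 3.58.1 (robust empirical Bayes) and counts with edgeR 4.0.16 (TMM, robust quasi-likelihood) in R 4.3.3, with all groups of a region in 1 fit and Benjamini-Hochberg adjustment over all genes of the region. A gene was called at an adjusted p under 0.05. BNST levels are TMM-scaled log2 CPM with a prior count of 0.5. Ratios and correlations used permutation tests (SciPy 1.17.1; 100000 permutations for correlations). Alternatives were other covariates, filters, normalizations, samples and DESeq2 1.42.0. On simulated data with 200 genes changed by a log2 value of 1 between susceptible and control B6 mice, 92.0% (mPFC), 40.0% (BNST) and 93.0% (vHPC) were recovered.

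The 9 genes and the lists (other microglia genes, receptor ligands and signalling, complement cascade, microglia activation, and markers of perivascular macrophages, blood leukocytes, red blood cells, endothelium, astrocytes, oligodendrocytes, neurons, choroid plexus and meningeal fibroblasts) were chosen with earlier results of these data known. Statistics are given for each called member, or for the member with the lowest p where none was called, and for at most the 3 called genes with the lowest p of a list and comparison; further members are given for contrast. A gene of the complement list is counted there and not reported here by name. Of 23 comparisons, 4 (strains in susceptible mice of each region and in resilient BNST mice) were added after seeing the data.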

Additional observations from a re-analysis of the deposited data

Results flagged for a closer look

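Among 126 sets of 4 to 10 mice, each a member in a group, 8 had a mouse farther from the others than Dixon's 95% criterion allows; chance gives about 1 in 20. Of these, 5 were D2 control replicate 2 of the BNST, with log2 CPM of 2.58 for *Tmem119* (next lowest 3.70), 0.28 for *Tyrobp* (1.83), 2.56 for *C1qa* (4.32), 2.6 for *C1qb* (4.38) and 1.86 for *C1qc* (3.58). The others were *Tyrobp* in mPFC B6 resilient replicate 3, at 2.00 (next lowest 2.48), *C1qb* in mPFC B6 control replicate 5, at 4.34 (next highest 4.03), and *C1qa* in BNST B6 resilient replicate 4, at 4.98 (next lowest 5.01). The last gap is small because the other 4 mice were nearly equal.

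The response of susceptible mice differed between the strains in the vHPC for *C1qb* (0.69, SE 0.16, adjusted p = 0.038, limma) and *C1qc* (0.67, SE 0.14, adjusted p = 0.021). Both were lost without susceptible B6 replicate 1 (0.59 and 0.56, adjusted p = 0.20 and 0.14) or replicate 2 (0.69 and 0.67, adjusted p = 0.11 and 0.064).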

How the results depend on the processing

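Of the alternatives to log2 fold changes of members, 941 kept direction and side of the threshold, 129 lost the call, 2 gained it and 1 reversed; member counts stayed within 1.5 times in 395 and moved in 39. With library set as a covariate the vHPC counts were 2 (susceptible against control B6), 0 (resilient against control), 0 (susceptible against resilient), 4 (strain, controls), 0 (strain, susceptible) and 0 (strain by stress), the BNST resilient strain count was 0, and *C1qb* in susceptible D2 vHPC reversed to 0.28. The subunit differences in the vHPC were then -2.06 and -1.26 (*C1qb* minus *C1qa*, control and susceptible mice) and -1.46 and -0.99 (*C1qc* minus *C1qa*). Sequencing set gave 0 members for resilient against control vHPC, and the mouse identifier prefix gave 0 for strain by stress. With only the compared groups the BNST strain counts were 0 (controls) and 3 (resilient), and susceptible against resilient vHPC gave 2. For BNST resilient mice DESeq2 gave 2 and no TMM scaling 0. An intensity trend gave 1 in susceptible D2 vHPC. Without D2 control replicate 2, 1 of 24 further microglia genes was called between BNST controls, against 4 with it. The cause of these changes was not tested.

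Leaving out 1 mouse gave 0 to 1 members for susceptible against resilient mPFC (1 without B6 susceptible replicate 3), 0 to 1 for the strains in resilient BNST mice, 3 to 7 for susceptible against control and 3 to 6 for susceptible against resilient B6 vHPC, 0 to 1 for susceptible D2 vHPC, and 0 to 2 for strain by stress. The vHPC subunit differences in susceptible mice ranged from -1.51 to -1.40 and from -1.19 to -1.08, in designs then too small to reach 0.05, with smallest p of 0.095 or 0.057. The BNST difference of *C1qb* minus *C1qa* in susceptible mice ranged from -0.071 to 0.074, reversing to 0.011 without B6 susceptible replicate 1 and 0.074 without replicate 2. Without 2 mice the mPFC correlations of *C1qa* with *C1qb* (0.35) and *Trem2* with *Tyrobp* (0.32) no longer passed.

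No paired analysis was run. Regions were not tested against each other, also not in the 7 mice with both an mPFC and a vHPC library. The mouse prefix was estimable in 5 of 7 mPFC, 5 of 9 BNST and 5 of 7 vHPC planned or added comparisons only. Depth is unknown for the mPFC and vHPC, and *Tyrobp* in the BNST rested on as few as 14 reads. All reads were aligned to the B6 genome, so the effect of D2 sequence differences on strain contrasts was not tested. Nothing says that mice came from separate litters.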
